A study of Mus musculus with 8 samples.

Results

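The Rab genes of the mouse are described here in splenic CD8 T cells sorted by the inhibitory Fc receptor FcgRIIB. Members were taken by name: every row of the deposited expression table whose symbol begins with Rab followed directly by a digit, which gave 58 of 13204 rows. Of these rows, 48 code for Rab GTPases, 9 for regulators or effectors that carry a Rab name (Rab3gap1, Rab3gap2, Rab3il1, Rab3ip and 5 Rab11fip genes), and 1, Rab10os, is a transcript from the strand opposite Rab10. The label "Rab GTPases" therefore covers most of the rows but not all of them.

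The cells were FcgRIIB+ (4 libraries, called positive) and FcgRIIB- (4 libraries, called negative), both sorted from the CD44hi Thy1.1+ CD8+ gate. All cells are labelled as OT-I T cells, whose receptor recognises a peptide of ovalbumin. Mice received 1000000 of these cells 24 hours before a graft of OVA-expressing skin, and spleens were taken on day 14 after grafting. Each replicate number stands for 1 pool of 3 spleens that gave 1000 positive and 1000 negative cells, so values are averages over pooled animals, and a positive and a negative library with the same number share their mice. The age, sex and strain of the recipients are not stated in the labels. The design asks how effector CD8 T cells with and without this receptor differ in their transcripts.

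Rab proteins are small GTPases that mark the surface of vesicles and organelles. They are anchored in membranes by prenyl groups, are switched on by guanine nucleotide exchange factors and off by GTPase-activating proteins, and in the GTP-bound form recruit effectors that move, tether or fuse vesicles. In cytotoxic T cells Rab27a and its effectors dock lytic granules at the contact with the target cell, and in dendritic cells and macrophages other Rab proteins direct phagosomes, antigen processing and Toll-like receptors.

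Levels are in RPKM, which counts reads relative to exon length and to the depth of the library. Fold changes are differences of mean log2(RPKM + 1), positive minus negative, which understate changes of low genes, and a gene is named as called when its Benjamini-Hochberg adjusted p over all 11946 genes tested by limma was below 0.05. Depth, recovered from the steps of the values, was 5310000 to 22010000 reads in positive and 3060000 to 17950000 reads in negative libraries. In both groups the 2 shallowest libraries were replicates 3 and 4. The sorted receptor itself, Fcgr2b, was at 29.6 to 69.9 RPKM in positive libraries, against 1.82 to 4.82 RPKM in negative libraries. T cell genes were present in every library: Cd8b1, a chain of the CD8 coreceptor, averaged 696.7 ± 243.8 RPKM in positive libraries, against 1326 ± 443.0 RPKM in negative libraries (SD, n = 4 each), and Cd3g, of the T cell receptor complex, averaged 635.0 ± 307.0 RPKM in positive and 1188 ± 475.6 RPKM in negative ones. Genes known from other cells were also present. The 12 listed markers of cross-presenting dendritic cells summed to 1027 to 2348 RPKM in positive and 66.6 to 160.2 RPKM in negative libraries, and 11 of 12 were called higher, 12 with the replicate block, with Ppt1 and Naaa the most abundant. The 14 listed markers of macrophages and monocytes summed to 1919 to 2656 RPKM in positive and 197.6 to 1285 RPKM in negative libraries, and 9 of 14 were called higher, 13 with the block. The most abundant were Lyz2 and C1qb. Negative replicate 2 alone gave the sum of 1285 RPKM, 855.6 RPKM of it from Lyz2, which limma did not call (adjusted p = 0.127), and the other negative libraries summed to 197.6 to 325.3 RPKM. No marker of these 2 lists was at 0 in any library. The 16 core T cell genes summed to 2243 to 4856 RPKM in positive and 5925 to 9495 RPKM in negative libraries, and 0 of 16 were called lower by limma, 8 with the block. Of 8 basophil and mast cell markers, led by Mcpt8 and Prss34, 3 were called higher by limma, Prss34 not among them, and 8 with the block, with sums of 63.05 to 1280 RPKM in positive libraries, against 8.56 to 43.4 RPKM in negative libraries, where Mcpt8 and Fcer1a were at 0 in at least 1 library. Sums of the listed cytotoxic, B cell, plasma cell, platelet and erythroid, and neutrophil genes overlapped between the groups, and of these genes limma called 1 of B cells and 1 of plasma cells, Jchain, higher. Negative replicate 2 had the highest negative sums of B cell, plasma cell and neutrophil genes. The plasma cell sums overlapped through this library alone, at 543.1 RPKM, 431.5 RPKM of it from Jchain. The positive libraries summed to 430.9 to 1119 RPKM for plasma cell genes, and the other negative libraries to at most 68.6 RPKM. With the block 2 of 6 plasma cell genes were called higher and 0 lower. Negative replicate 4, the shallowest library, stood apart at low values: the lower quartile of RPKM over genes was 4.27 there, beside 1.68 to 2.68 in the positive libraries and 1.09 to 1.62 in the other negative ones.

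FcgRIIB+ libraries had more transcript of a small set of Rab genes in limma, while most of the family passed the test in neither direction. A second fit took the replicate number as a block, since libraries of the same number share a pool. It also called Rab31, Rab38 and Rab3il1 higher, and it called Rab37 and Rab3ip lower. Rab7b, a late endosomal Rab known from the control of Toll-like receptors in macrophages, was 19.8-fold higher, Rab32, a Rab of lysosome-related organelles, 7.21-fold, and Rab43, which acts between endoplasmic reticulum and Golgi and in mouse dendritic cells serves cross-presentation, 6.28-fold (RPKM + 1 scale, n = 4 each). Rab30, a Golgi Rab, was 4.13-fold higher and Rab39, a Rab of phagosome maturation, 3.22-fold. The call of Rab39 (limma adjusted p = 0.0418) held in only 1 of 8 fits with 1 library left out. In bulk libraries of sorted cells, more cells that hold a transcript and more transcript per cell cannot be told apart. The summed markers of dendritic cells, macrophages and basophils were higher in the same libraries as Rab7b, Rab32, Rab43, Rab30 and Rab39. Those of plasma cells were higher in the positive than in the negative library of each pool. The part of these markers in the result was not tested.

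Of 58 rows, 54 reached 1 RPKM in at least 4 libraries and were tested, and Rab3b, Rab3c, Rab11fip2 and Rab11fip5 were not. In limma 5 of 54 members were called higher, which is 9.26%, where 3.03% of all tested genes were, and 0 of 54 were called lower, where 0.268% of all tested genes were. With no adjustment, limma had 10 members higher and 2 lower at a p under 0.05, where 7.48% of all tested genes were higher and 4.67% lower. Each of the 5 called members was at 1 RPKM or above in all 4 positive libraries and in 2 to 4 negative ones. With the replicate number as a block, which the shared pools justify, 8 members were called higher (14.8%, against 7.22% of all genes) and 2 lower (3.70%, against 3.85%). The 5 added by the block were Rab31, Rab38 and Rab3il1, which were higher, and Rab37 and Rab3ip, which were lower. The median log2 fold change was -0.01 over the tested members and -0.11 over all genes tested, and 27 members lay above 0 and 27 below.

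**Figure D1:**
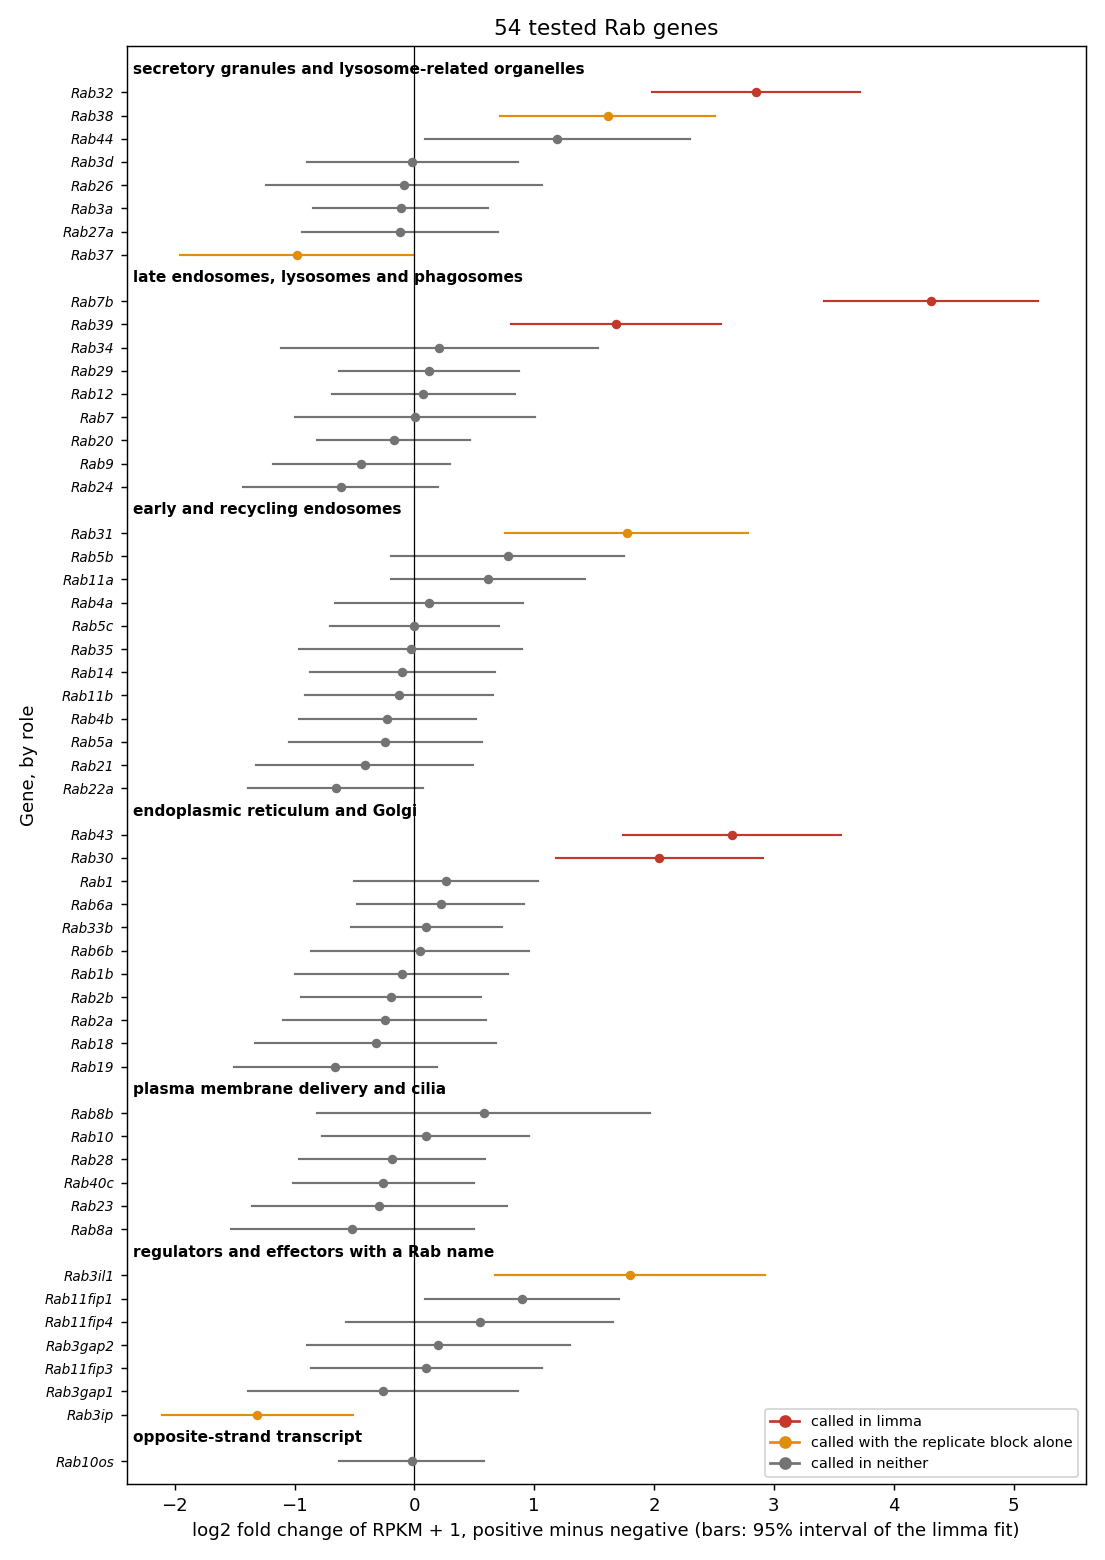
Log2 fold change of RPKM + 1 (x axis, positive minus negative) for the 54 tested Rab genes, grouped by role (y axis). Points are limma estimates and bars their 95% intervals without the replicate block (n = 4 libraries per group). The 5 genes called in limma are red, the 5 called with the replicate block alone are orange, and the rest centre near 0.

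Of the 44 members called in neither fit, 43 had a log2 fold change smaller than 1 in size. For 20 of the 44 the 95% interval of the limma fit stayed within 1 log2 unit on either side, and with the block, whose errors are smaller, it did for 33 of the 44. The exception beyond 1 was Rab44, a large Rab of mast cells and other leukocytes, at 3.64, 8.41, 2.77 and 1.79 RPKM in positive replicates 1 to 4, against 0.149, 0.546, 0.960 and 3.83 RPKM in replicates 1 to 4 of the negative cells. Its groups overlapped through negative replicate 4, and it missed the threshold (log2 fold change 1.19 with an SE of 0.51, adjusted p = 0.355 in limma and 0.0698 with the block).

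The summed level of the family overlapped between the groups. Over the 58 rows, RPKM summed to 1179 to 1950 in positive and 1032 to 1843 in negative libraries. The called members together held 10.8% to 16.3% of that sum in positive libraries, against 0.970% to 2.53% in negative libraries. They were chosen for being higher in these same libraries, so the direction of this difference was fixed by the choice. Rab8a, which delivers vesicles to the plasma membrane, was the most abundant member, with 8.78% to 16.1% of the sum in positive and 11.9% to 20.8% in negative libraries. After it came Rab1b, Rab7, Rab2a and Rab4b, with means over all libraries of 121.3, 94.6, 74.0 and 71.0 RPKM, and the groups overlapped for each of them. Over all 8 libraries 11 members averaged at least 50 RPKM and 15 averaged under 5 RPKM.

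**Figure D2:**
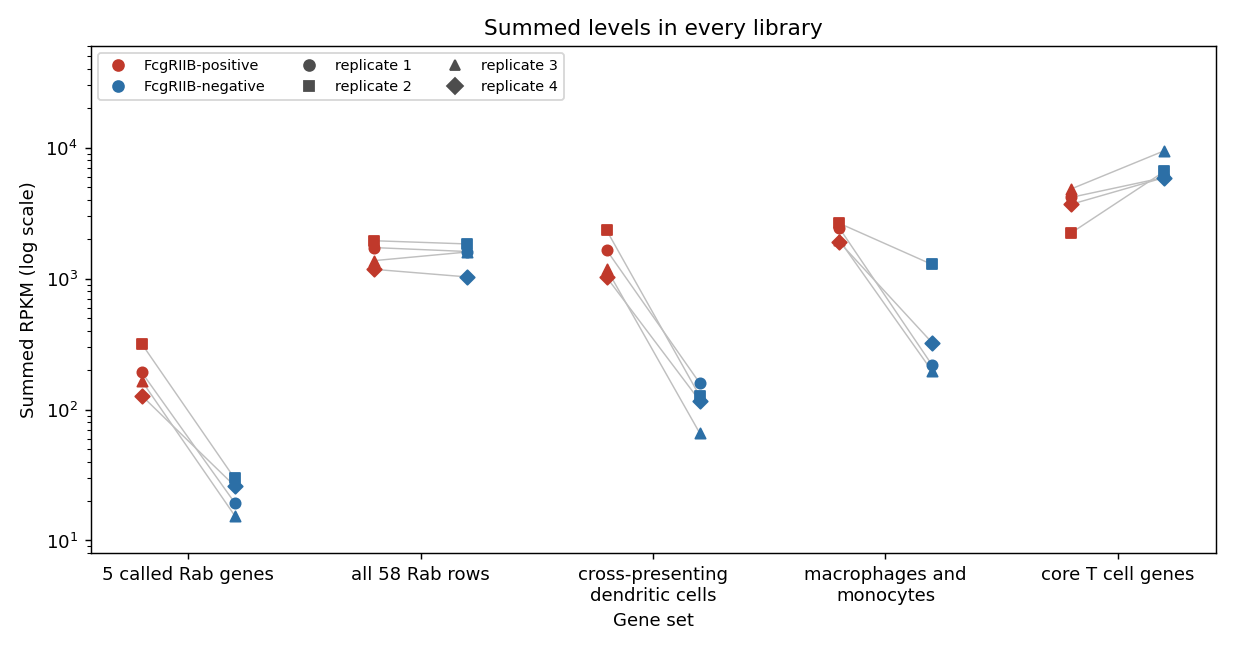
Summed RPKM (y axis, log scale) of the 5 called Rab genes, all 58 Rab rows and 3 marker lists (x axis) in every library, with positive libraries in red on the left, negative ones in blue on the right, a marker shape per replicate and grey lines joining libraries of the same pool. The called Rab genes and both marker lists of antigen-presenting cells are higher in every positive library than in its negative counterpart, the core T cell genes are lower, and the sum of all Rab rows overlaps. The called Rab genes were chosen for being higher in these same libraries.

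Upstream sequence was available for 5 of the 8 members that were higher with or without the block (Rab31, Rab32, Rab39, Rab43 and Rab3il1), and part of it is shown because these members were higher together. The 250 bases before each RefSeq transcript start on GRCm38.p6, a later build than the mm9 named for the table, were searched on both strands for 4 motifs known from leukocyte and lysosomal genes. These were GAGGAAGT of PU.1-type factors, a pair of GAAA spaced by 2 free bases of interferon regulatory factors, CACGTG of E-box factors and TGANTCA of AP-1, present in 2.44%, 2.98%, 6.02% and 6.75% of 32851 such windows. The windows of Rab32, Rab39 and, for the outermost of its 4 starts, Rab43, the members called in limma for which the table holds one, are shown with motif matches in capitals. They lie at chr10:10558208-10558457, chr9:53706233-53706482 and chr6:87812165-87812414, all on the minus strand, and run 5′ to 3′ along the gene.
Rab32: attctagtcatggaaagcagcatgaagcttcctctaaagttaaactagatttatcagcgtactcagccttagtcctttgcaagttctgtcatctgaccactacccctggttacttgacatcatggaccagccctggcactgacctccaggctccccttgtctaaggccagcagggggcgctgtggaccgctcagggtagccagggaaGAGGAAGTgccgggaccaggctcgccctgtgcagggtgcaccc
Rab39: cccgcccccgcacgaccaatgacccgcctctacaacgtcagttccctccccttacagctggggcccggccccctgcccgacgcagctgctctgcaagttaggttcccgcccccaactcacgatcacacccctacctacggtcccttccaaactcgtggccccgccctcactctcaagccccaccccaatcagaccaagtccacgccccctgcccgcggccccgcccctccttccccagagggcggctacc
Rab43: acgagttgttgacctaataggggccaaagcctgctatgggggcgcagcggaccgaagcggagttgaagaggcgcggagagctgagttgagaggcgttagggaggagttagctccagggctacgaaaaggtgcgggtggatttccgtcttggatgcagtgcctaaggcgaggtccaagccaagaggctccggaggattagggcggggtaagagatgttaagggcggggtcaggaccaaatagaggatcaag
The Rab32 window held GAGGAAGT beginning 43 bases before the start, and the windows of Rab39, Rab31 and all 4 starts of Rab43 held no match to the 4 motifs. In Rab3il1, CACGTG occurred at 2 positions in the windows of 2 of its 5 starts. A match is a description of letters in these windows and not a binding site.

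Among Rabs of late endosomes, lysosomes and phagosomes, 2 of 9 tested members were called higher and 0 lower. Rab7b was measured at 49.8, 68.5, 46.0 and 30.5 RPKM in replicates 1 to 4 of the positive cells, against 1.47, 0.728, 0.537 and 4.15 RPKM in replicates 1 to 4 of the negative cells. Each positive library lay far above each negative one, and the highest negative value was that of replicate 4. The negative values rest on 160, 75, 24 and 77 reads, and the positive ones on 984 to 9157 reads. Its log2 fold change of 4.31 (SE 0.41, adjusted p = 0.000272 by limma, exact permutation p = 0.0286) was the largest of the family. That exact p, two-sided, is the smallest that the 35 distinct splits of 8 libraries into 4 and 4 allow. Any gene whose groups do not overlap reaches it, and the splits ignore that libraries of the same number share a pool. Rab7b stayed called in 8 of 8 fits with 1 library left out, with adjusted p up to 0.00208.

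Rab7, which carries late endosomes to fusion with lysosomes and is the close relative of Rab7b, was measured at 124.1, 127.5, 65.0 and 57.6 RPKM in replicates 1 to 4 of the positive cells, against 118.0, 134.6, 88.5 and 41.8 RPKM in replicates 1 to 4 of the negative cells. Its groups overlapped throughout (log2 fold change 0.00, 95% interval -0.50 to 0.51 with the block, adjusted p = 1 by limma). The log2 ratio of Rab7b to Rab7, a ratio within a library that no rescaling of the library changes, was -1.32 to -0.50 in positive and -7.53 to -3.33 in negative libraries. This pair was chosen for description after its values were seen.

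Rab39 was measured at 4.41, 9.51, 3.98 and 4.75 RPKM in replicates 1 to 4 of the positive cells, against 0.356, 1.05, 0.503 and 2.64 RPKM in replicates 1 to 4 of the negative cells. The groups did not overlap, yet all values were low, and the negative ones rest on 11 to 53 reads. Limma gave a log2 fold change of 1.69 (SE 0.40) with an adjusted p of 0.0418, and the call ended in 7 of 8 fits with 1 library left out, with adjusted p up to 0.166 without positive replicate 2; only without negative replicate 4 did it hold. The other members of this role lay between -0.62 and 0.21 on the log2 scale and were called in neither fit. Rab29, a partner of the kinase LRRK2, averaged 41.9 ± 11.1 RPKM in positive libraries, against 38.5 ± 10.8 RPKM in negative libraries (SD, n = 4 each), and Rab24, a Rab linked to autophagy, averaged 22.9 ± 8.02 RPKM in positive libraries, against 34.6 ± 9.52 RPKM in negative libraries.

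**Figure D3:**
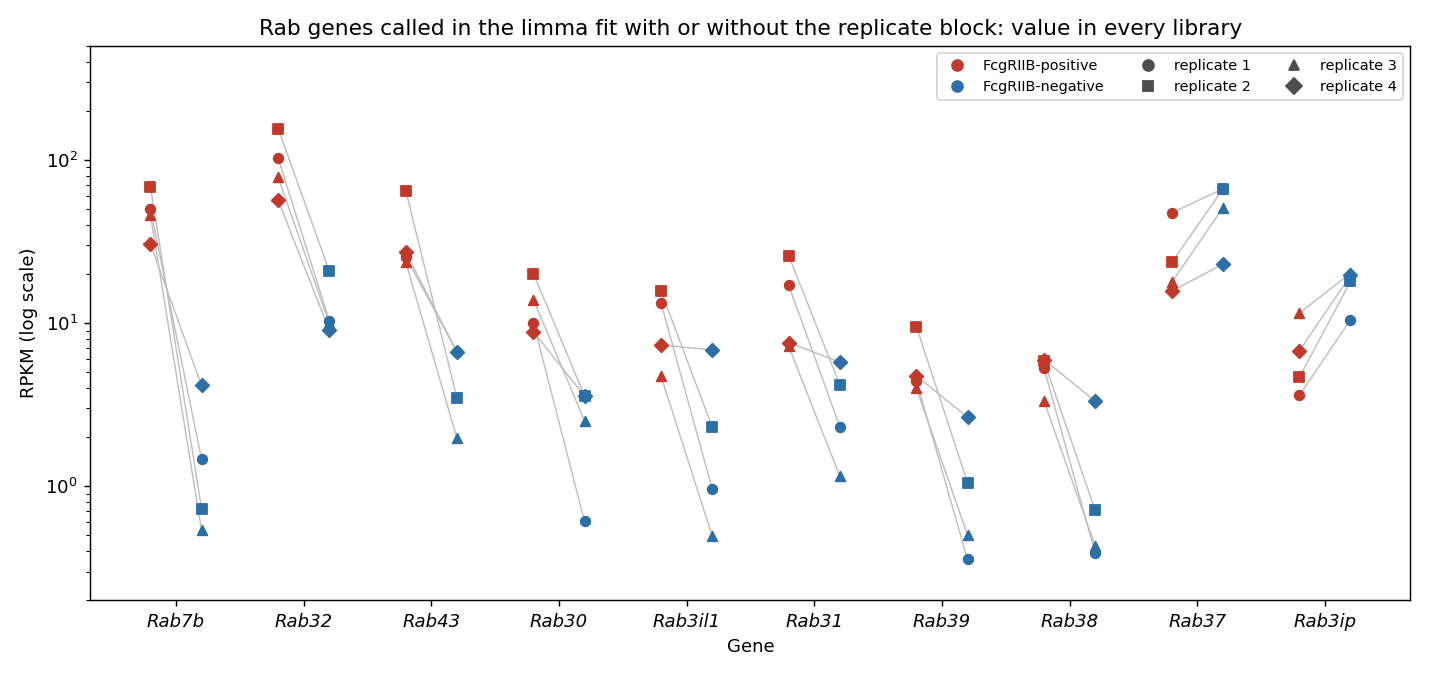
RPKM (y axis, log scale) in every library for the 10 Rab genes called in limma or with the replicate block (x axis, by falling fold change). Positive libraries are red on the left, negative ones blue on the right, shapes mark replicates and grey lines join libraries of the same pool; for Rab7b, Rab32, Rab43, Rab30, Rab31 and Rab39 no positive library overlaps a negative one.

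Of 8 tested Rabs of secretory granules and lysosome-related organelles limma called 1 higher and 0 lower, and the block 2 higher and 1 lower. Rab32, which with Rab38 builds melanosomes and related organelles and in mouse macrophages acts against Salmonella, was measured at 102.9, 155.8, 78.5 and 56.65 RPKM in replicates 1 to 4 of the positive cells, against 10.4, 20.95, 9.99 and 9.08 RPKM in replicates 1 to 4 of the negative cells. The lowest positive library was above the highest negative one, which was replicate 2. In limma it differed by 2.85 on the log2 scale (SE 0.40) with an adjusted p of 0.00217 (exact permutation p = 0.0286), called in 8 of 8 fits with 1 library left out.

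Rab38 was far lower than Rab32 at 5.27, 5.82, 3.31 and 5.97 RPKM in positive replicates 1 to 4, against 0.389, 0.710, 0.431 and 3.32 RPKM in replicates 1 to 4 of the negative cells. Negative replicate 4 lay level with positive replicate 3, so the groups overlapped, and the other 3 negative values rest on 5 to 19 reads. Rab38 missed the limma threshold (a log2 fold change of 1.61 with an SE of 0.41 and an adjusted p of 0.0583) and passed with the block (adjusted p = 0.00155), without negative replicate 4 (adjusted p = 0.00498) and under 3 other scalings of the libraries. The log2 ratio of Rab32 to Rab38 was 3.25 to 4.74 in positive and 1.45 to 4.88 in negative libraries, and these ranges overlapped.

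Rab37, a Rab of secretory granules, was measured at 47.4, 23.5, 17.7 and 15.7 RPKM in replicates 1 to 4 of the positive cells, against 66.4, 66.2, 50.9 and 23.0 RPKM in replicates 1 to 4 of the negative cells. It was lower in each of the 4 pools although the ranges overlapped, and it passed with the block alone (log2 fold change -0.98, limma adjusted p = 0.408, and 0.0101 with the block). When libraries were scaled to their core T cell genes, which raised the median log2 fold change of all genes by 0.79, its log2 fold change was -0.02. In the reference annotation Rab37 overlaps Cd300lf, a receptor gene of myeloid cells that averaged 9.99 RPKM in positive libraries, against 3.99 RPKM in negative libraries. The sources used here do not say whether counting used strand, so reads of these 2 genes may not be told apart.

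Rab27a, the Rab of lytic granule docking, was measured at 17.4, 14.0, 6.72 and 9.27 RPKM in replicates 1 to 4 of the positive cells, against 22.1, 10.1, 10.8 and 8.98 RPKM in replicates 1 to 4 of the negative cells. The groups overlapped, with higher values in 2 of 4 positive libraries than in their negative counterparts, and the log2 fold change of -0.12 had a 95% interval of -0.94 to 0.70 (limma adjusted p = 1). Its effector Unc13d, which primes lytic granules for fusion, averaged 30.7 ± 21.4 RPKM in positive libraries, against 34.3 ± 24.7 RPKM in negative libraries (SD, n = 4 each; limma adjusted p = 1). Rab3d, a Rab of regulated secretion, averaged 8.74 ± 3.37 RPKM in positive libraries, against 9.36 ± 5.21 RPKM in negative libraries and was called in neither fit.

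Among Rabs of the endoplasmic reticulum and Golgi, 2 of 11 tested members were called higher and 0 lower. Rab43 was measured at 25.55, 64.7, 23.7 and 27.1 RPKM in replicates 1 to 4 of the positive cells, against 6.66, 3.48, 1.97 and 6.67 RPKM in replicates 1 to 4 of the negative cells. Positive replicate 2 stood far above the other positive libraries. The groups did not overlap, with the lowest positive library at 23.7 RPKM and the highest negative one at 6.67 RPKM. Limma gave a log2 fold change of 2.65 (SE 0.42) with an adjusted p of 0.00429 (exact permutation p = 0.0286), and Rab43 stayed called in 8 of 8 fits with 1 library left out.

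Rab30 was measured at 10.1, 20.1, 13.9 and 8.85 RPKM in replicates 1 to 4 of the positive cells, against 0.608, 3.58, 2.52 and 3.57 RPKM in replicates 1 to 4 of the negative cells. No positive library came down to the negative range, and the negative values rest on 23 to 128 reads. Its log2 fold change of 2.05 (SE 0.40) had a limma adjusted p of 0.0135, which reached 0.0505 without negative replicate 3, the only library whose removal ended the call.

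The abundant Golgi members were called in neither fit. Rab1b, which tethers vesicles between endoplasmic reticulum and Golgi, averaged 117.1 ± 39.3 RPKM in positive libraries, against 125.6 ± 38.7 RPKM in negative libraries (SD, n = 4 each), and Rab2a, which acts on the same route, 69.1 ± 23.4 RPKM in positive libraries, against 78.9 ± 17.1 RPKM in negative libraries. Rab18, found at the endoplasmic reticulum and on lipid droplets, averaged 59.96 ± 29.3 RPKM in positive libraries, against 73.1 ± 28.7 RPKM in negative libraries. The log2 fold changes of all 9 members of this role called in neither fit lay between -0.66 and 0.26.

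Rabs of early and recycling endosomes formed the largest role, with 12 tested members, of which limma called 0 (at an unadjusted p under 0.05, 1 higher and 0 lower) and the block 1, Rab31. Rab31 directs traffic from the trans-Golgi network to endosomes and is a close relative of Rab22a. It was measured at 17.0, 25.8, 7.20 and 7.59 RPKM in replicates 1 to 4 of the positive cells, against 2.31, 4.18, 1.15 and 5.77 RPKM in replicates 1 to 4 of the negative cells. The groups did not overlap, but replicates 3 and 4 of the positive libraries lay close to negative replicate 4. It differed by 1.77 on the log2 scale (SE 0.46), with an adjusted p of 0.0681 in limma and 0.000530 with the block, and it passed under 3 other scalings of the libraries. Rab22a itself, an endosomal sorting Rab, was measured at 8.17, 20.9, 15.9 and 10.9 RPKM in replicates 1 to 4 of the positive cells, against 19.1, 26.4, 20.1 and 20.4 RPKM in replicates 1 to 4 of the negative cells. Positive values were lower in all 4 pools and missed the threshold in both fits (log2 fold change -0.66, limma adjusted p = 0.497, and 0.0936 with the block). The log2 ratio of Rab31 to Rab22a was -1.15 to 1.06 in positive and -4.13 to -1.82 in negative libraries, which did not overlap. Rab31 was already among the genes called higher, and Rab22a was described after its values were seen. The ratio is therefore no separate support.

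The Rabs that define early endosomes, Rab5a, Rab5b and Rab5c, were called in neither fit. Rab5b was measured at 22.6, 18.4, 6.52 and 8.70 RPKM in replicates 1 to 4 of the positive cells, against 14.2, 4.78, 4.38 and 7.16 RPKM in replicates 1 to 4 of the negative cells, higher in all 4 pools (log2 fold change 0.78, limma adjusted p = 0.588, and 0.0816 with the block). Rab11a, the main Rab of recycling endosomes, was measured at 43.95, 83.7, 83.0 and 91.8 RPKM in replicates 1 to 4 of the positive cells, against 40.01, 57.6, 62.2 and 34.6 RPKM in replicates 1 to 4 of the negative cells. It too was higher in each pool and missed the threshold (log2 fold change 0.61, limma adjusted p = 0.626, and 0.124 with the block). Rab4b, of fast recycling, averaged 64.4 ± 6.02 RPKM in positive libraries, against 77.6 ± 22.0 RPKM in negative libraries, and Rab14, of Golgi and endosomes, 50.2 ± 15.5 RPKM in positive libraries, against 53.4 ± 13.3 RPKM in negative libraries (SD, n = 4 each).

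**Figure D4:**
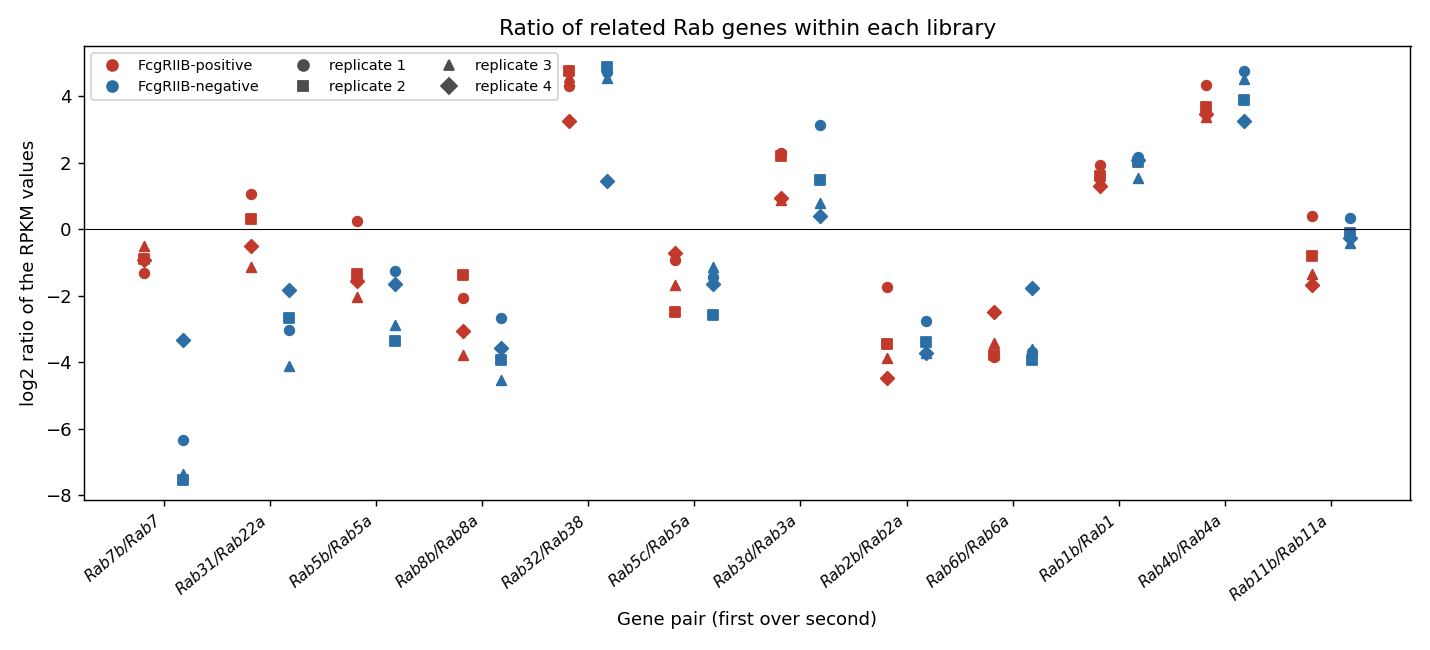
Log2 ratio of the RPKM values (y axis) for 12 pairs of related Rab genes (x axis, first gene over second) in every library, positive in red on the left and negative in blue on the right, with a shape per replicate. Groups are apart for Rab7b over Rab7 and Rab31 over Rab22a and overlap for the other 10 pairs. Rab7b and Rab31 were already among the genes called higher in these same libraries.

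For 10 of the 12 pairs described, the within-library ratio overlapped between the groups. Rab8b, a Rab of exocytosis, was measured at 66.7, 70.2, 11.6 and 12.4 RPKM in replicates 1 to 4 of the positive cells, against 42.4, 20.7, 14.2 and 10.4 RPKM in replicates 1 to 4 of the negative cells. Replicates 1 and 2 were above replicates 3 and 4 in both groups, and the 95% interval of its log2 fold change was -0.81 to 1.97 in limma, the widest of the tested members there, and 0.00 to 1.15 with the block, where it missed the threshold (adjusted p = 0.213). Its relative Rab8a averaged 180.2 ± 72.8 RPKM in positive libraries, against 260.5 ± 95.3 RPKM in negative libraries, and Rab10, of plasma membrane delivery, 63.0 ± 26.3 RPKM in positive libraries, against 58.6 ± 19.6 RPKM in negative libraries (SD, n = 4 each). Limma and the block called 0 of 6 members of plasma membrane delivery and cilia, and 0 passed an unadjusted p under 0.05. The opposite-strand transcript Rab10os, which overlaps Rab10 in the annotation and may share its reads, averaged 6.78 ± 1.88 RPKM in positive libraries, against 6.79 ± 0.834 RPKM in negative libraries.

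Of the 7 tested regulators and effectors with a Rab name, limma called 0 (at an unadjusted p under 0.05, 2 higher and 1 lower), and the block called Rab3il1 higher and Rab3ip lower. Both code for exchange factors that switch on Rab8. Rab3il1 was measured at 13.2, 15.6, 4.71 and 7.33 RPKM in replicates 1 to 4 of the positive cells, against 0.963, 2.31, 0.496 and 6.85 RPKM in replicates 1 to 4 of the negative cells. Negative replicate 4 lay within the positive range, and the gene passed with the block, after scaling to core T cell genes, in replicates 1 and 2 alone and in 2 of 8 fits with 1 library left out (log2 fold change 1.80, limma adjusted p = 0.105, 0.00136 with the block and 0.0186 without negative replicate 4). Rab3ip was measured at 3.60, 4.66, 11.5 and 6.76 RPKM in replicates 1 to 4 of the positive cells, against 10.5, 18.01, 20.2 and 19.6 RPKM in replicates 1 to 4 of the negative cells. It was lower in all 4 pools, and only positive replicate 3 reached into the negative range (log2 fold change -1.31, limma adjusted p = 0.0922, and 0.00127 with the block). Under the scaling to core T cell genes, which raised the fold change of every gene, the log2 fold change of Rab3ip was -0.42. Rab11fip1, an effector of Rab11, averaged 9.30 ± 5.78 RPKM in positive libraries, against 4.17 ± 1.30 RPKM in negative libraries without overlap, with positive replicate 2 at 17.96 RPKM far above the others, and missed the threshold in both fits (adjusted p = 0.335 in limma and 0.0662 with the block). Rab3gap1, which activates Rab18 and inactivates Rab3, and Rab11fip4, an effector of Rab11, were called in neither fit, with log2 fold changes of -0.26 and 0.55.

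In all, 7 of the 54 tested members had every positive library above every negative one, a pattern met by 4.61% of all genes tested, and 0 had the opposite pattern, met by 4.15%. Replicates 1 and 2 alone, a fit of 4 libraries, called 9 members higher and 1 lower, and replicates 3 and 4 alone called 3 higher, namely Rab7b, Rab32 and Rab43, and 0 lower. For replicates 1 and 2 the counts over all genes are given below with the other settings. For replicates 3 and 4 only the lower count is. The member counts of both fits are not read as a result about the family. The log2 fold changes of Rab7b, Rab32 and Rab43 were 4.85, 3.02 and 2.83 in replicates 1 and 2 and 3.77, 2.69 and 2.47 in replicates 3 and 4. Rab30 and Rab39 had 2.49 and 2.18 in replicates 1 and 2 and 1.60 and 1.19 in replicates 3 and 4, where both missed the threshold (limma adjusted p = 0.0638 and 0.542). All 15 members that averaged under 5 RPKM had their highest negative value in replicate 4, Rab38, Rab39 and Rab44 among them, and 10 of the 15 had their highest value of all 8 libraries there. What part the raised low values of this library have in these members' fold changes was not tested beyond leaving it out. That fit called 8 members higher and 0 lower. Over all genes, fits with 1 library left out called 178 to 503 higher, and the count of this fit alone is not given.

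The machinery around Rab proteins was read from 4 lists, of which 130 genes were tested. Limma called 3 higher and 0 lower (8 and 1 at an unadjusted p under 0.05, where 7.48% of all genes were higher and 4.67% lower), and the block called 6 higher and 2 lower. Among all genes limma called 3.03% higher and 0.268% lower, and the block 7.22% higher and 3.85% lower. The median log2 fold change over these genes was 0.05. All 3 called genes were GTPase-activating proteins of the TBC family, from the list of GTPase-activating proteins, of which 31 were tested. Tbc1d8 was measured at 18.9, 59.9, 18.2 and 22.9 RPKM in replicates 1 to 4 of the positive cells, against 0.687, 1.22, 0.933 and 4.23 RPKM in replicates 1 to 4 of the negative cells, higher in each of the 4 pools (log2 fold change 3.46 with an SE of 0.45, adjusted p = 0.00137 by limma). Tbc1d4, which holds glucose transporter vesicles back through Rab10 and related Rabs, averaged 36.3 ± 28.1 RPKM in positive libraries, against 4.90 ± 1.87 RPKM in negative libraries (log2 fold change 2.39, limma adjusted p = 0.0198). Tbc1d9 averaged 11.6 ± 7.53 RPKM in positive libraries, against 1.61 ± 2.22 RPKM in negative libraries (log2 fold change 2.42, limma adjusted p = 0.0229). With 1 library left out Tbc1d8 was called in 8 of 8 fits, Tbc1d4 in 5 and Tbc1d9 in 3. Their fold changes stand beside the same higher dendritic cell and macrophage marker lists, whose part was not tested.

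Among the other lists limma called none of 9 genes of Rab delivery and prenylation (0 at an unadjusted p under 0.05), none of 40 exchange factors (1 higher and 1 lower) and none of 50 effectors (4 higher and 0 lower). Dennd2d, an exchange factor gene of the DENN family, was lower with the block, at 35.4 ± 12.2 RPKM in positive libraries, against 95.5 ± 32.8 RPKM in negative libraries without overlap (SD, n = 4 each; log2 fold change -1.41, limma adjusted p = 0.0863, and 0.000160 with the block). Tbc1d10c, a lymphocyte GTPase-activating protein that also restrains calcineurin, averaged 168.5 RPKM in positive libraries, against 302.5 RPKM in negative libraries (log2 fold change -0.90, limma adjusted p = 0.525, and 0.0370 with the block). The scaling to core T cell genes raised the fold change of every gene. Under it the log2 fold change was 0.09 for Tbc1d10c and -0.43 for Dennd2d. The Rab kinase Lrrk2 averaged 13.5 ± 12.5 RPKM in positive libraries, against 1.71 ± 1.70 RPKM in negative libraries (log2 fold change 2.16, limma adjusted p = 0.0823, and 0.00167 with the block). Its groups overlapped, with higher values in 3 of 4 positive libraries than in their negative counterparts. Its relative Lrrk1 and the Rab8 and Rab10 effector Ehbp1l1 were also higher with the block alone (log2 fold changes 1.26 and 1.09, adjusted p = 0.00823 and 0.00830 in limma with the block).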

How the data were processed

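Gene expression of 8 mouse libraries was measured by sequencing of poly(A) RNA, amplified with SMART-seq v4 and made into libraries with NexteraXT, per the labels' protocols. The authors deposited RPKM per gene, per the file headers, and the submitters' processing notes name TopHat2 and the build mm9. Counting and the use of strand are not given in the sources used here. Every row reached 3 RPM in at least 4 libraries, tested on the values, so rarer transcripts are outside the table. Symbols of 21 genes turned into dates were restored through Entrez IDs, 13187 of which matched the RefSeq table of GRCm38.p6, used for names, neighbours and upstream sequence.

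Depths were recovered by finding the depth at which low values are whole reads (100% of checked values within 0.1 reads). Reads from amplified cDNA are not independent molecules, so the spread between replicates sets the errors.

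The test was limma 3.58.1 under R 4.3.3 (lmFit, eBayes with a trend, group as the only term, two-sided) on log2(RPKM + 1) for genes at 1 RPKM or more in at least 4 libraries, with Benjamini-Hochberg adjustment over all 11946 genes and a threshold of 0.05. A second fit had the replicate number as a block. The series design states that a number marks 1 pool of spleens, and libraries of the same number deviated together from their group means (r = 0.704, 0.414, 0.561 and 0.677 over genes for numbers 1 to 4). For named members an exact permutation test over the 8 libraries, which ignores the shared pools, was run as well. The members, role lists, pathway lists and markers were chosen with earlier results of these data known. Named genes were the members called in either fit with all values, up to 3 further members per role by mean RPKM, Rab27a and Rab7, and up to 4 called genes per pathway list; Rab5b, Rab22a, Rab44, Unc13d and the pair Rab7b and Rab7 were added after their values were seen. Tools that need counts were not used.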

Additional observations from a re-analysis of the deposited data

Results flagged for a closer look

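For the 31 members given with values the 4 libraries of each group were checked for a value far from the other 3, and 8 of 62 groups held one. The check flags about 1 in 20 groups where values are normal and groups independent. All groups came from the same 8 libraries and normality of the RPKM values was not checked, so no excess over chance is shown. Positive replicate 2 was high for Rab43, at 64.7 RPKM against 23.7 to 27.1 RPKM in the other positive libraries, for Rab39, at 9.51 against 3.98 to 4.75 RPKM, for Rab10, at 102.3 against 46.8 to 53.7 RPKM, and for Rab11fip1, at 17.96 against 6.09 to 6.62 RPKM. Without that library Rab43 kept its call and Rab39 did not (limma adjusted p = 0.166). Positive replicate 1 was low for Rab2a, at 34.1 RPKM against 78.3 to 83.0 RPKM in the other positive libraries. Negative replicate 2 was high for Rab32, at 20.95 RPKM against 9.08 to 10.4 RPKM in the other negative libraries. Negative replicate 4 was high for Rab38, at 3.32 RPKM against 0.389 to 0.710 RPKM, and negative replicate 1 for Rab27a, at 22.1 RPKM against 8.98 to 10.8 RPKM.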

How the results depend on the processing

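Rab7b, Rab32 and Rab43 were called higher under every alternative run, and no gene called in limma turned its direction. The count of Rab members called higher was 5 in limma, 8 with the replicate block, 10 after scaling to core T cell genes, 7 with median ratios and 7 with quantile normalization (both adding Rab31 and Rab38), 9 in replicates 1 and 2 and 3 in replicates 3 and 4, and 3 to 8 with 1 library left out; 3 came from leaving out negative replicate 3 and 8 from leaving out negative replicate 4. The count called lower was 0 in limma, 2 with the block, 1 in replicates 1 and 2 and 0 to 1 with 1 library left out, the 1 being Rab3ip without positive replicate 3. Over all genes 362 were higher and 32 lower in limma, 863 and 460 with the block, 875 and 142 in replicates 1 and 2, and 178 to 503 and 5 to 45 with 1 library left out. Scaling to core T cell genes gave 941 higher and 2 lower, and moved the median of all genes by 0.79 on the log2 scale, to 0.68, beside a median of 0.85 for the Rab members. The lower count was 19 with median ratios, 60 with quantile normalization and 11 in replicates 3 and 4. The higher count over all genes is not given for these settings, so their member counts have no background beside them. They are not read as a result about the family. For fits with 1 library left out the counts over all genes are given only as a range. Of the Rab regulators and effectors 3 were higher and 0 lower in limma, 6 and 2 with the block, 9 higher after core T cell scaling, 9 and 1 in replicates 1 and 2, 1 lower with quantile normalization, and 1 to 4 higher and 0 to 1 lower with 1 library left out. Rab39 lost its call at a pseudocount of 5 (limma adjusted p = 0.0571). At 3060000 reads, 1 read was worth 0.327 RPM in negative replicate 4, which limits the low members there. The cause of these changes was not tested.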
